A study of Saccharomyces cerevisiae with 8 samples.

Results

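The GAL regulon of the budding yeast Saccharomyces cerevisiae is the set of genes that lets the cell take up galactose and turn it into glucose phosphates, together with the genes that switch it on and off. The 9 members described here, chosen by systematic name, are GAL1, GAL7, GAL10, GAL2, GAL3, GAL4, GAL80, PGM2 and GCY1, out of 10799 yeast features with values in the files. All 9 had reads in every library, and 8 of the 9 passed the filter on low values and entered the tests; GAL2 did not. The galactose genes stood low in these glucose-grown cells, and on the spike-in scale their differences between the strain with tagged Dbp2 and the parental strain lay near the median of all features. Of the 8 tested, 2 passed the test between the strains without rapamycin and 7 with it, and the direction turned for most of them under another scaling.

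Total RNA was sequenced after rRNA depletion with a stranded kit, from cells of the W303 background grown in YPD, a rich glucose medium, at 30 °C to mid-log phase. The 8 libraries formed 4 groups of 2 biological replicates: parental cells without rapamycin, parental cells given rapamycin at 1 µg/mL for 1 h, and cells with the tagged helicase Dbp2 without and with the same treatment. The design looks at what happens to RNA when Dbp2, a DEAD-box RNA helicase that acts on transcripts in the nucleus, is drawn out of it by rapamycin (anchor-away). All 4 groups shared a MATalpha genotype with tor1-1, which makes the TOR kinase insensitive to rapamycin, an FPR1 deletion (fpr1::NAT), RPL13A-2xFKBP12::TRP1 as the anchor, the markers ura3, his3-11,15, leu2 (the double allele written 3 and 112), can1-100, trp1-1 and ade2-1, and the entries GAL and psi+. The tagged groups carried in addition DBP2-FRB-GFP-KanMX6, which the labels give in the source name but not in the genotype field. Parental and tagged cells are therefore separate strains, and a difference between them without rapamycin includes whatever the tag or the strain's making changed.

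In galactose the sensor Gal3 binds the inhibitor Gal80 and frees the activator Gal4, which sits at upstream sites of the structural genes and turns them on. Gal2 brings galactose in, and Gal1, Gal7 and Gal10 carry out the Leloir pathway, the steps that convert it to glucose 1-phosphate, which Pgm2 isomerises to glucose 6-phosphate. In glucose the repressor Mig1, with the corepressors Cyc8 and Tup1, holds GAL4, GAL1 and other sugar genes down, and noncoding transcripts across the GAL1-GAL10 locus have been tied to this repression and to the speed of induction, with Dbp2 among the proteins reported to act there.

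Matches to the motif that Gal4 binds are shown first because most members share them. The Gal4 motif, CGG and CCG separated by 11 bases of any kind (it reads the same on both strands), was searched in the 600 bases before the coding start of 6005 genes of the R64 genome, and 210 of these promoters (3.5%) held at least 1 match. Of the members, 8 of 9 held one. GAL1 and GAL10 are transcribed away from each other from one intergenic stretch of 668 bases, chrII:278353-279020, and share its 3 matches; the part that holds them, on the + strand at chrII:278558-278631, follows with the CGG and CCG triplets in capitals.
GAL10-GAL1 shared promoter: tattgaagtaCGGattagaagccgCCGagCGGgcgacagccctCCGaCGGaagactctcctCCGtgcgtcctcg
GAL2 had 5 matches, of which the last 2 overlap, and GAL7, GAL3, GAL4, GAL80 and GCY1 had 1 each. Only 7 of the 6005 promoters (0.117%) held 2 or more, and GAL1, GAL10 and GAL2 are among them. The single matches, each read on the strand of its gene, differ in the 11 inner bases.
GAL7 (chrII:275703-275719, - strand, 176 bases before the coding start): CGGacaactgttgaCCG
GAL3 (chrIV:463146-463162, + strand, 272 bases before): CGGtccactgtgtgCCG
GAL4 (chrXVI:82810-82826, - strand, 454 bases before): CGGtggcgcaggatCCG
GAL80 (chrXIII:171422-171438, + strand, 156 bases before): CGGcgcactctcgcCCG
GCY1 (chrXV:550745-550761, + strand, 353 bases before): CGGggcagactattCCG

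PGM2 had no match in its window. The Mig1 core was searched on both strands in the forms CCCCGC and CCCCAC alone. CCCCGC was in 408 promoters (6.79%) and in none of the members. CCCCAC was in 641 promoters (10.7%) and in those of GAL1, GAL10, GAL3, GAL80 and PGM2, the match between GAL1 and GAL10 being 1 shared site. Other forms were not searched, so a promoter without a match is not shown to lack a Mig1 site. A match is a description of the letters; binding was not measured.

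The deposited values are read densities, reads per nucleotide of a feature scaled to 92 added spike-in RNAs, and levels below are on that scale. Recovered yeast reads ran from 22523089 to 27500124 per library, and spike-ins took 3.86 to 4.44% of reads in the parental libraries and 2.93 to 3.65% in the tagged ones. At which step the spike-ins were added is not stated in the labels. On the spike-in scale the median log2 fold change over all 9719 features tested was 0.36 for the tag without rapamycin and 0.59 between the strains with rapamycin, so the members are read against these shifts. DBP2 itself stood at 2.29 to 2.61 reads per nucleotide in parental and 2.86 to 4.33 in tagged libraries; rapamycin acts on the location of the protein, so its mRNA does not check the depletion. In bulk RNA a change in every cell and a change in the share of cells that express a gene cannot be told apart.

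The members spanned a wide range of levels per counted length, which exceeds the coding length for every member but GAL10. GAL80 was the highest, with a mean density of 1.69 over the 8 libraries, above 83.5% of the 6591 protein-coding features. PGM2 followed at 0.401 (above 51.9%) and GCY1 at 0.317 (above 45%). The galactose-specific genes lay far below these. GAL1 had 0.0769 (above 17.1% of protein-coding features), GAL3 0.0685 (16.2%), GAL4 0.0422 (13.2%), GAL7 0.0156 (8.21%), GAL10 0.0141 (7.87%) and GAL2 0.00995 (6.55%). GAL1 was above GAL3, and GAL7 above GAL10, in 6 of 8 libraries each, so these neighbours in the order were not separated in every library, whereas every other neighbour was above the next in 8 of 8.

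**Figure D1:**
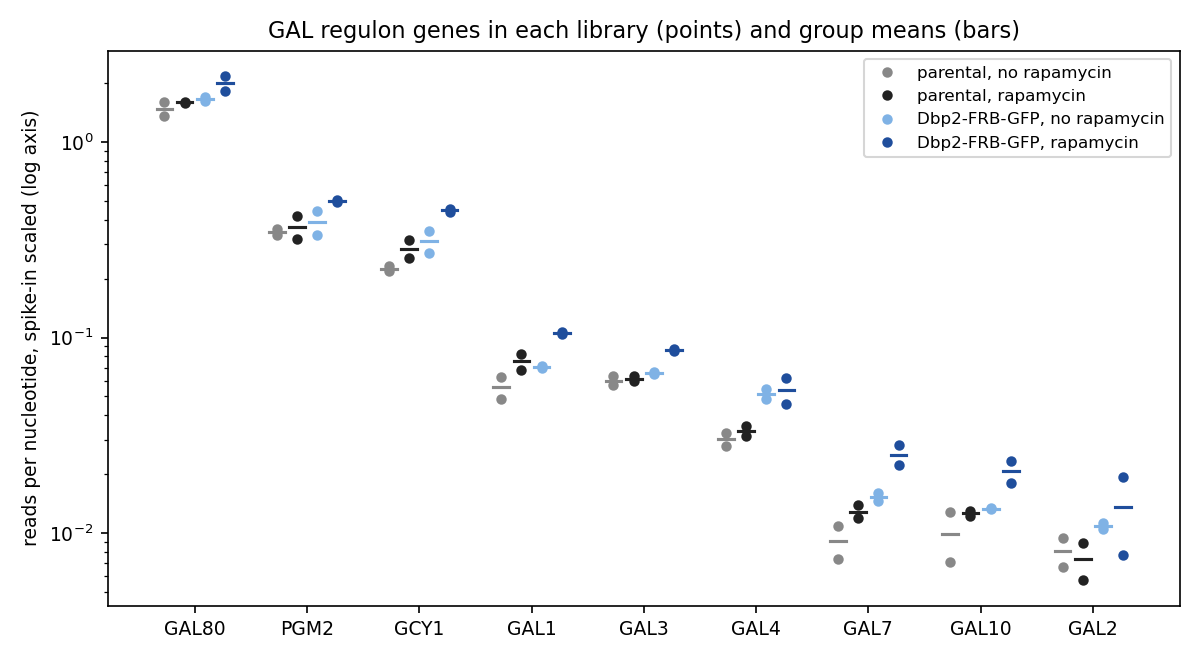
Read density (reads per nucleotide, spike-in scaled, log axis) of the 9 GAL regulon genes in each of the 8 libraries; points are libraries, bars are group means of 2 replicates. GAL80, PGM2 and GCY1 lie at or above 0.218, while GAL1, GAL3, GAL4, GAL7, GAL10 and GAL2 all lie at or below 0.107, and on this scale the tagged cells with rapamycin have the highest mean of each gene.

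Among the regulators, GAL4 (YPL248C, chrXVI:79711-82356, - strand, 1 coding part of 2646 nt) encodes the activator. Its density was 0.0325 and 0.0280 in parental cells without rapamycin and 0.0351 and 0.0312 with it. In tagged cells it was 0.0484 and 0.0545 without rapamycin and 0.0617 and 0.0458 with it, from 79 to 148 reads per library. All 4 tagged libraries were above all 4 parental ones, and rapamycin left the 2 groups of each strain close together: the tagged groups overlap each other and so do the parental ones.

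GAL80 (YML051W, chrXIII:171594-172901, + strand, coding length 1308 nt) encodes the inhibitor that masks the activation domain of Gal4. It had 1.36 and 1.60 reads per nucleotide in untreated parental cells and 1.59 and 1.60 with rapamycin. Tagged cells had 1.69 and 1.63 without rapamycin and 2.18 and 1.83 with it. The tagged libraries were again all above the parental ones, by a narrow margin without rapamycin, and with 2148 to 2762 reads per library GAL80 is the best-measured member.

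GAL3 (YDR009W, chrIV:463434-464996, + strand, coding length 1563 nt) encodes the galactose sensor, a paralog of the kinase Gal1 without its enzyme activity. Densities were 0.0570 and 0.0635 in untreated parental cells, 0.0597 and 0.0636 in parental cells with rapamycin, 0.0647 and 0.0669 in untreated tagged cells and 0.0874 and 0.0849 in tagged cells with rapamycin. The first 3 groups lay within 0.0570 and 0.0669, and the tagged cells with rapamycin stood above them.

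The transporter gene GAL2 (YLR081W, chrXII:290212-291936, + strand, coding length 1725 nt) gave 0.00667 and 0.00948 in untreated parental cells, 0.00572 and 0.00894 in parental cells with rapamycin, 0.0105 and 0.0113 in untreated tagged cells, and 0.0193 and 0.00775 in tagged cells with rapamycin. The highest library and the third lowest are thus replicates of 1 group. Reads ran from 12 (95% exact Poisson interval 6.2 to 21) to 35 (24.4 to 48.7), intervals that cover counting error only, and the gene's mean density was under the filter. With no filter on low values, limma called GAL2 in no comparison and gave no unadjusted p under 0.05 for it: the log2 difference between strains was 0.25 ± 0.26 (SE, adjusted p = 0.468) without rapamycin and 0.46 ± 0.26 (adjusted p = 0.137) with it.

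GAL1 (YBR020W, chrII:279021-280607, + strand, coding length 1587 nt), GAL10 (YBR019C, chrII:276253-278352, - strand, 2100 nt) and GAL7 (YBR018C, chrII:274427-275527, - strand, 1101 nt) lie side by side on chromosome II. GAL1 encodes galactokinase, the entry step of the Leloir pathway. Its density was 0.0487 and 0.0625 in untreated parental cells, 0.0685 and 0.0828 in parental cells with rapamycin, 0.0697 and 0.0716 in untreated tagged cells and 0.107 and 0.104 in tagged cells with rapamycin. The group means were 0.0556 ± 0.00981, 0.0757 ± 0.0101, 0.0706 ± 0.00133 and 0.106 ± 0.00210 (SD, n = 2). Untreated parental cells were lowest and tagged cells with rapamycin highest, and the other 2 groups overlapped.

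GAL7, the uridylyltransferase that passes UMP between the sugar phosphates, had 0.00736 and 0.0108 in untreated parental cells, 0.0119 and 0.0138 in parental cells with rapamycin, 0.0160 and 0.0145 in untreated tagged cells and 0.0280 and 0.0223 in tagged cells with rapamycin. These 4 groups did not overlap. The density of GAL7 was computed by the authors over 4249 nt or a multiple of it, the shortest length at which its reads come out whole. Its coding length is 1101 nt, so its counted interval reaches beyond the coding sequence and its level is not that of the coding sequence alone. Whether it takes in reads of a neighbouring gene was not tested. Counted lengths also exceeded the coding lengths of GAL1 (2449 nt), GAL3 (2353 nt) and GAL2 (2121 nt), and by less those of GAL4, GAL80, PGM2 and GCY1. GAL10, the epimerase and mutarotase, was counted over its coding length of 2100 nt and had 0.00709 and 0.0128 in untreated parental cells, 0.0130 and 0.0122 in parental cells with rapamycin, 0.0134 and 0.0133 in untreated tagged cells and 0.0234 and 0.0181 in tagged cells with rapamycin. Apart from 1 low parental library of 20 reads and the tagged cells with rapamycin, GAL10 was at nearly the same level throughout, with 20 to 42 reads per library.

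PGM2 (YMR105C, chrXIII:475897-477606, - strand, coding length 1710 nt) encodes the major phosphoglucomutase, which joins the Leloir pathway to glycolysis and also works in glycogen and trehalose metabolism. Its density was 0.361 and 0.333 in untreated parental cells, 0.418 and 0.320 in parental cells with rapamycin, 0.444 and 0.334 in untreated tagged cells and 0.491 and 0.508 in tagged cells with rapamycin. Replicate 1 was well above replicate 2 in the 2 middle groups, and only the tagged cells with rapamycin were clear of the rest.

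GCY1 (YOR120W, chrXV:551114-552052, + strand, coding length 939 nt) encodes a glycerol dehydrogenase of the aldo-keto reductase family that Gal4 also regulates. It had 0.218 and 0.232 in untreated parental cells, 0.315 and 0.255 in parental cells with rapamycin, 0.352 and 0.271 in untreated tagged cells and 0.440 and 0.457 in tagged cells with rapamycin. The 2 tagged groups did not overlap each other, nor did the 2 parental ones.

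Without rapamycin, GAL4 and GCY1 were the 2 of 8 tested members that passed the test between the strains, both higher in tagged cells on the spike-in scale. A gene is said to be called at a Benjamini-Hochberg adjusted p under 0.05 in limma. GAL4 rose by 0.65 ± 0.19 on the log2 scale (SE; limma, adjusted p = 0.0103). It was not called under another scaling, at 0.43 after protein-coding scaling (adjusted p = 0.0799), 0.10 after snoRNA scaling (0.776) and 0.03 after quantile normalization (0.902). GCY1 rose by 0.44 ± 0.16 (adjusted p = 0.0281) and was not called at 0.19 after protein-coding scaling (0.358), -0.19 after snoRNA scaling (0.529) and 0.14 after quantile normalization (0.525). GAL7 (0.47, adjusted p = 0.105), GAL1 (0.32, 0.138), GAL10 (0.28, 0.351), GAL80 (0.17, 0.333), PGM2 (0.15, 0.475) and GAL3 (0.12, 0.580) had positive log2 differences and were not called. Of all features 46.2% were called in this comparison, so 2 of 8 was no more than the background; voom on recovered reads called 3 of 8, against 50.4%. The median log2 difference of the members was 0.30, between 0.26 for protein-coding features and 0.36 for all features. This order moved with the method: with voom the members' median was 0.41, against 0.27 for protein-coding features and 0.39 for all features. The groups did not overlap, with tagged cells higher, for 7 of 8 members (all but PGM2), against 68.8% of all features. Each call rested on single libraries: GAL4 missed the threshold without parental replicate 2 (adjusted p = 0.0566) or tagged replicate 2 (0.08), and GCY1 without parental replicate 1 (0.126) or tagged replicate 1 (0.26 on the log2 scale, adjusted p = 0.39).

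With rapamycin 7 of the 8 tested members were called higher in tagged than in parental cells, at a background of 72.5% of all features called, and each of the 7 turned negative under at least 1 other scaling. GAL7 rose by 0.68 ± 0.23 (adjusted p = 0.0130; -0.06 after quantile normalization), GCY1 by 0.65 ± 0.16 (adjusted p = 0.0014; -0.01 after snoRNA scaling) and GAL4 by 0.58 ± 0.19 (adjusted p = 0.0113; -0.22 after quantile normalization). Smaller on the spike-in scale were GAL1 (0.45, adjusted p = 0.0248), GAL3 (0.44, 0.0235), PGM2 (0.44, 0.0219) and GAL80 (0.32, 0.0457), and GAL10 (0.49, 0.0748) was the member that missed the threshold in limma. Voom on recovered reads called all 8, GAL10 among them (0.71, adjusted p = 0.0079), against 74.7% of all features. For all 8 the tagged libraries were above the parental ones, as they were for 83.1% of all features. The filter of 0.0127 was on the mean of all 8 libraries. GAL7 and GAL10 were under it in untreated parental cells (0.00909 and 0.00993) and above it in both tagged groups. They thus entered the tests through the groups where they were higher. With no filter limma called 7 of 9 members in this comparison. The members' median of 0.47 was below the median of all features (0.59) and close to that of protein-coding features (0.50), and 6 of the 8 lay below the all-feature median. That count was 5 with the 1st-percentile pseudocount, 7 with the 20th-percentile one and 4 with voom. With voom the medians were 0.58 for members, 0.63 for all features and 0.52 for protein-coding ones.

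**Figure D2:**
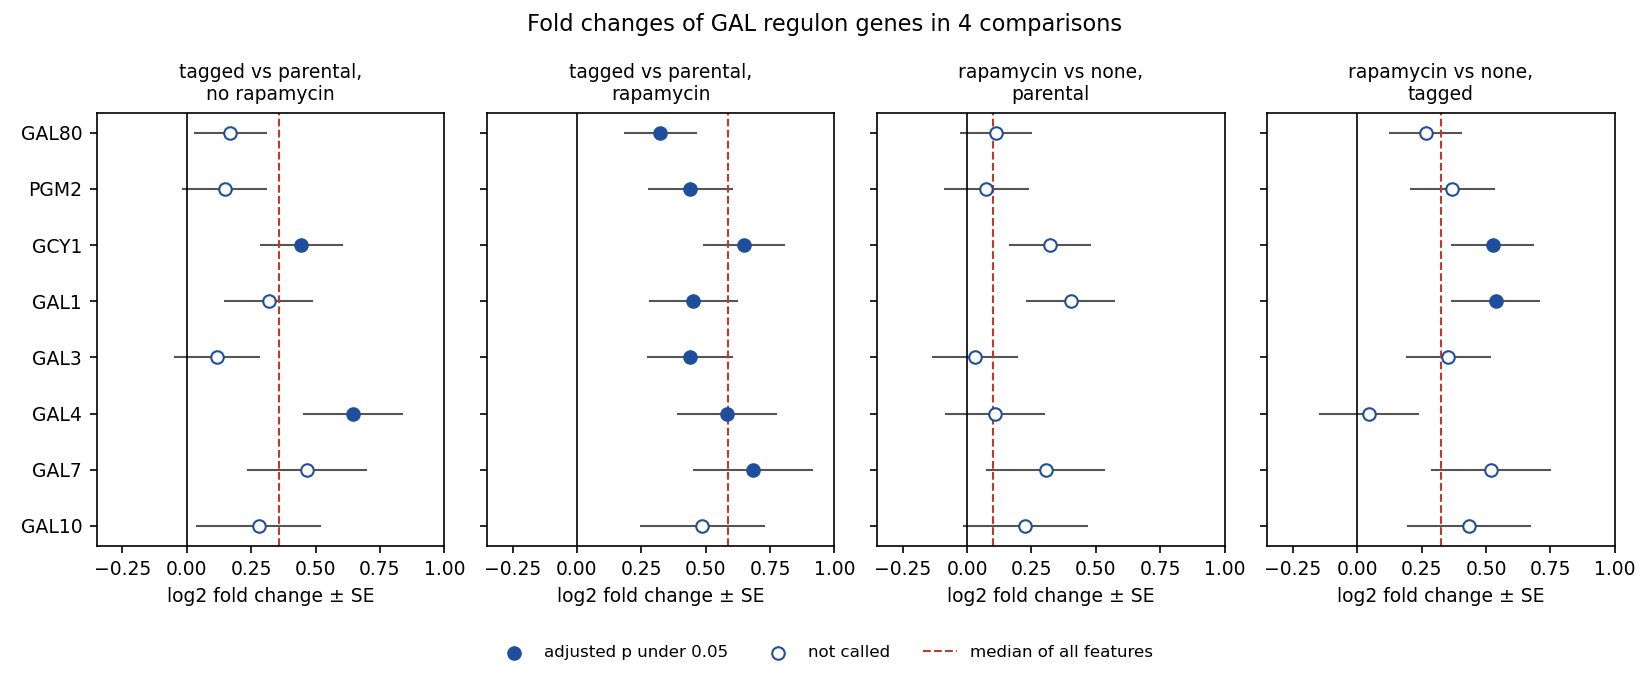
Log2 fold change with its standard error (horizontal bars) of the 8 tested GAL regulon genes in 4 comparisons; filled points were called at an adjusted p under 0.05, and the dashed line is the median of all 9719 features. In both strain comparisons most members lie left of the dashed line, 5 of 8 without and 6 of 8 with rapamycin, and no member is called for rapamycin in parental cells. With voom, not drawn here, 4 of 8 lay below the median of all features in each strain comparison.

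GCY1 alone kept its call between the strains with rapamycin when each of the 4 libraries was left out in turn. PGM2 lost it without parental replicate 2 (0.25, adjusted p = 0.293). GAL1 lost it without parental replicate 1 (adjusted p = 0.212) or tagged replicate 1 (0.0786), GAL7 without the same libraries (0.08 and 0.106), and GAL4 without parental replicate 2 (0.0667) or tagged replicate 1 (0.39, adjusted p = 0.148). GAL3 lost it without parental replicate 1 (0.133), parental replicate 2 (0.0637) or tagged replicate 1 (0.0841), and GAL80 without parental replicate 1 (0.182), parental replicate 2 (0.158) or tagged replicate 1 (0.20, adjusted p = 0.266). The number of members called was 3 without parental replicate 1 and 3 without parental replicate 2, 2 without tagged replicate 1 and 7 without tagged replicate 2.

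The direction of the strain difference depended on the scaling for most members. When the libraries were scaled to the protein-coding features, the all-feature medians dropped to 0.12 in both strain comparisons, no member was called without rapamycin (42.9% of all features were), and with rapamycin GAL80 alone was called (48.2%), lower in tagged cells at -0.18 on the log2 scale (adjusted p = 0.0088). Scaled to snoRNAs, no member was called in either comparison (27% and 23.3% of all features were). The snoRNAs themselves stood higher in tagged cells on the spike-in scale, with library factors of 0.750 to 0.829 in parental and 1.20 to 1.32 in tagged libraries. The protein-coding factors were 0.781 to 0.939 and 0.993 to 1.40. A negative value after either scaling is thus relative to a class that was itself higher in tagged cells. After quantile normalization GAL3 was called lower without rapamycin (-0.48), and GAL3 (-0.37) and GAL80 (-0.13) lower with it, where 36% and 43.3% of all features were called. GAL7, the largest difference with rapamycin, was 0.68 on the spike-in scale, 0.32 after protein-coding scaling, 0.21 after snoRNA scaling and -0.06 after quantile normalization. With rapamycin, GAL80 thus had the lowest value of the members both on the spike-in scale and relative to protein-coding RNA.

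**Figure D3:**
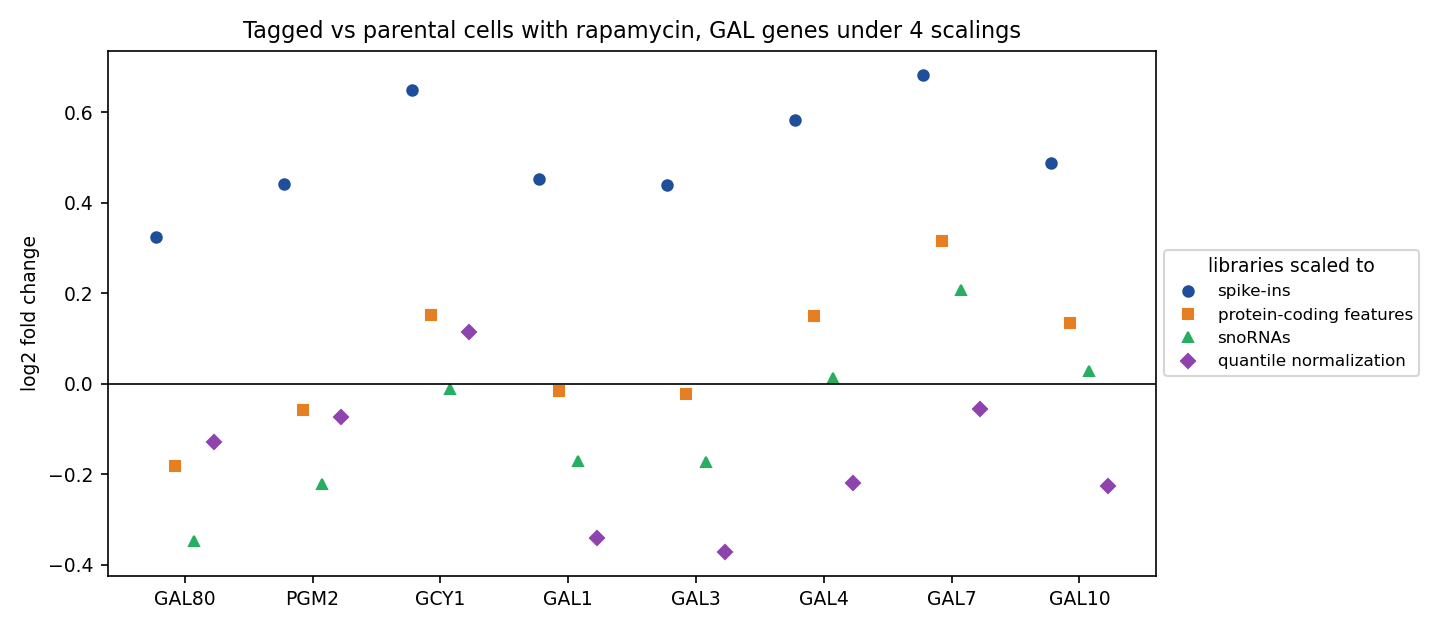
Log2 fold change of the 8 tested GAL regulon genes between tagged and parental cells with rapamycin, with the libraries scaled to spike-ins, protein-coding features or snoRNAs or quantile normalized; points are fitted values without error bars. All 8 points are above 0 on the spike-in scale, from 0.32 to 0.68, and GAL80 is below 0 under each of the other 3 scalings.

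Ratios of 2 genes within a library are the same under any scaling by a library factor, though not after quantile normalization, and were looked at as a description, with pairs chosen after values were seen. GAL80 stood 41.8 to 57.4 times above GAL4 per nucleotide in the 4 parental libraries and 29.9 to 40.0 times in the 4 tagged ones, with no overlap. The order of the 2 strain differences with rapamycin turned under quantile normalization, at -0.13 for GAL80 and -0.22 for GAL4. The ratio of GCY1 to its paralog YPR1, another aldo-keto reductase, was 0.154 to 0.203 in parental and 0.229 to 0.294 in tagged libraries, again without overlap. GAL1 to GAL10 (4.59 to 6.86 over all libraries), GAL3 to GAL80 (0.0375 to 0.0463) and PGM2 to its paralog PGM1 (0.238 to 0.377) overlapped between the strains. GAL1 to GAL3, the pair of paralogs, was 0.854 and 0.985 in untreated parental cells, 1.15 and 1.30 in parental cells with rapamycin, 1.08 and 1.07 in untreated tagged cells and 1.23 in both tagged libraries with rapamycin. GAL1 was thus below GAL3 in untreated parental cells and above it in all other libraries.

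Rapamycin in parental cells tests the drug without an FRB partner. No member was called by limma, with 0.0309% of all features called and 1 member at an unadjusted p under 0.05. That member was GAL1, with a log2 difference of 0.40 ± 0.17 (adjusted p = 0.837). GCY1 (0.32), GAL7 (0.30), GAL10 (0.23), GAL80 (0.11), GAL4 (0.11), PGM2 (0.07) and GAL3 (0.03) followed, with a median of 0.17 against 0.10 for all features. For 3 members, GAL1, GAL7 and GCY1, the treated libraries were both above the untreated ones, against 28.7% of features. Voom on recovered reads called no member either.

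In tagged cells, where rapamycin is meant to draw Dbp2 out of the nucleus, GAL1 and GCY1 were called higher with the drug, 2 of 8 members against 13.4% of all features. GAL1 rose by 0.54 ± 0.17 (adjusted p = 0.0467) and GCY1 by 0.53 ± 0.16 (adjusted p = 0.0417). GAL7 (0.52, adjusted p = 0.0936), GAL10 (0.43, 0.153), PGM2 (0.37, 0.0940), GAL3 (0.35, 0.105), GAL80 (0.27, 0.138) and GAL4 (0.05, 0.844) were not called. The median was 0.40 against 0.32 for all features, and the treated libraries were above the untreated for 7 of 8 members, all but GAL4, against 76.5% of features. Both calls were near the threshold. GAL1 lost its call without tagged untreated replicate 1 (0.157), untreated replicate 2 (0.261) or treated replicate 1 (0.193), and GCY1 without the same libraries (0.0502, 0.348 and 0.1). None was called after protein-coding scaling (0.185% of all features were), snoRNA scaling (1.91%) or quantile normalization (0.0514%), or without the filter on low values, and voom called 5 (30.9%). GAL1 stood at 0.21 and GCY1 at 0.18 after protein-coding scaling.

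The question whether rapamycin acted more in tagged than in parental cells was tested as an interaction. No member was called (0.0412% of all features were), none had an unadjusted p under 0.05, and voom on recovered reads called none. The interaction ran from -0.06 for GAL4 to 0.32 ± 0.24 for GAL3 (adjusted p = 0.612), with a median of 0.21 against 0.22 for all features. That GAL1 and GCY1 were called in one strain and not in the other therefore does not show that the response differed between the strains. The 2 strain comparisons use different libraries, but each shares its libraries with a rapamycin comparison, so the 4 sets of values are not independent of each other. With 2 libraries against 2 there are 6 arrangements, and an exact two-sided permutation test of 1 gene cannot give a p below 0.333, so none was run.

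Noncoding transcripts are listed beside every member but GAL7. The table has no coordinates or strand for them, and its rows follow the start positions of genes in 5891 of 5902 neighbouring pairs, so 14 noncoding features were taken as neighbours from the row order alone; whether each is antisense, upstream or overlapping was not read from the files. They belong to the classes CUT (cryptic unstable transcripts, cleared by the nuclear exosome), NUT (Nrd1-unterminated transcripts) and XUT (Xrn1-sensitive unstable transcripts, cleared in the cytoplasm). On the spike-in scale the 11 that passed the filter were called higher in tagged cells in 7 cases without and 11 with rapamycin, and 2, NUT0589 and XUT1051, with rapamycin in tagged cells. Of all 3528 noncoding features tested, 60.3%, 77.4% and 8.02% were called higher in these comparisons. Their median log2 differences, 0.58 and 0.76, were below those of all noncoding features tested (0.62 and 0.80).

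The features at the GAL1-GAL10 locus had few reads. CUT445, listed between GAL10 and GAL1 and counted over 2449 nt, the same length as GAL1, had 17 and 13 reads in untreated parental cells, 16 and 16 in parental cells with rapamycin, 29 and 23 in untreated tagged cells and 34 and 24 in tagged cells with rapamycin. All tagged libraries were higher, with densities of 0.00935 to 0.0162 against 0.00508 to 0.0066. With no filter limma gave a log2 difference of 0.51 (adjusted p = 0.0647) without and 0.65 (adjusted p = 0.0141) with rapamycin. In the same fit NUT0835, also listed between GAL10 and GAL1, stood at 0.57 and 0.62 (adjusted p = 0.0433 and 0.0201). These places are by row order. CUT445 and NUT0835 (2094 nt) were counted over more than the 668 bases that separate the 2 genes, so neither fits between them. XUT0967, listed between GAL1 and FUR4, stood at 0.56 and 0.62 (adjusted p = 0.048 and 0.0195). NUT0835 and XUT0967 had the same reads as each other in 7 of 8 libraries and so are not separate measurements. NUT0835 had 14 and 13, 16 and 16, 27 and 23, and 33 and 21 reads in the groups in the order above. These are close to the reads of CUT445, which may not be a separate measurement either. The density of CUT445 relative to that of GAL1 was 0.0748 to 0.106 in parental and 0.119 to 0.165 in tagged libraries, without overlap, while the ratio to GAL10 overlapped. Median log2 differences between the strains without and with rapamycin were 0.62 and 0.80 for noncoding features tested and 0.26 and 0.50 for protein-coding ones. A higher ratio of a noncoding feature to a gene in tagged cells is therefore not read as particular to this locus.

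**Figure D4:**
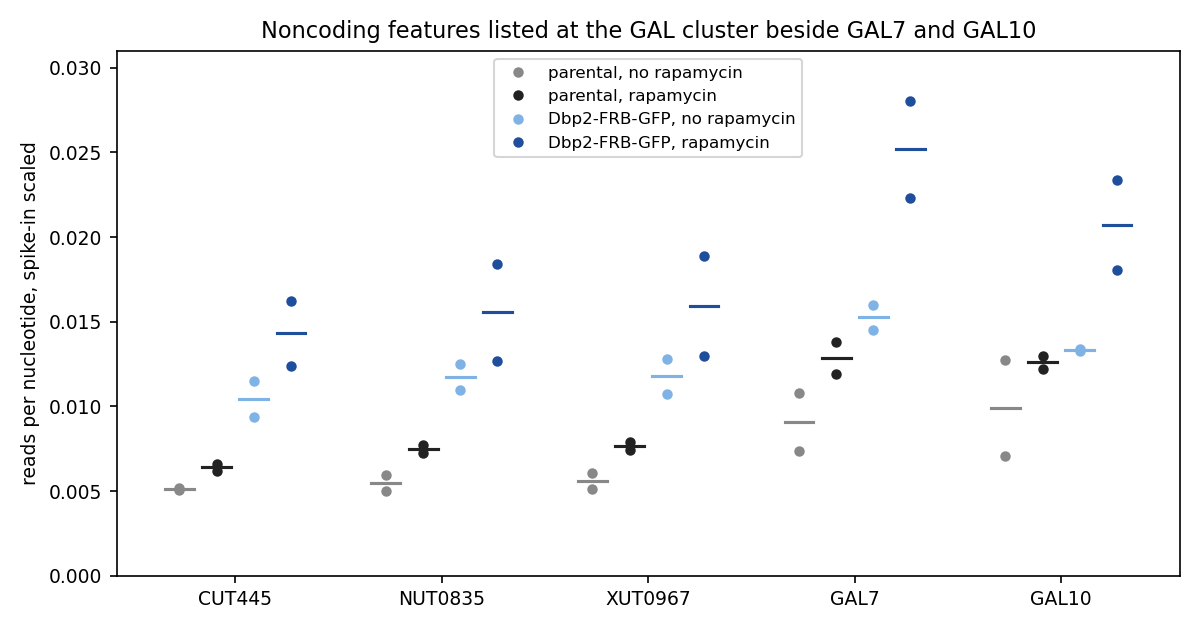
Read density (reads per nucleotide, spike-in scaled) of the 3 noncoding features listed at the GAL1-GAL10 locus, with GAL7 and GAL10, in each library; points are libraries and bars group means of 2 replicates. CUT445 lies at 0.00508 to 0.0066 in the 4 parental and at 0.00935 to 0.0162 in the 4 tagged libraries, and NUT0835 and XUT0967 nearly coincide. The 3 features had similar low reads and may not be separate measurements.

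The noncoding feature that differed most was NUT0589, listed between YPK2 and PGM2. It had 137 and 95 reads in untreated parental cells, 124 and 116 in parental cells with rapamycin, 342 and 320 in untreated tagged cells and 388 and 372 in tagged cells with rapamycin. Tagged libraries were far above parental ones with either treatment. The log2 difference was 1.60 ± 0.16 (limma, adjusted p = 1.93e-07) without rapamycin and 1.84 ± 0.16 (adjusted p = 1.42e-08) with it. It was called under each scaling, at 1.37, 1.01 and 1.09 without rapamycin after protein-coding scaling, snoRNA scaling and quantile normalization, and without each library in turn. Its ratio to PGM2 was 0.124 to 0.157 in parental and 0.340 to 0.435 in tagged libraries, so it moved apart from the gene beside it. NUT0589 was also called higher with rapamycin in tagged cells (0.49 ± 0.16, adjusted p = 0.0493), a call lost when any 1 of the 4 libraries was left out (highest adjusted p of 0.31) and under each other scaling, with 0.15 after protein-coding scaling (adjusted p = 0.743) and after quantile normalization (adjusted p = 0.666).

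XUT1051, listed before GAL3, rose with rapamycin in tagged cells by 0.61 ± 0.19 (adjusted p = 0.0452) from 34 and 35 to 52 and 41 reads, a call lost without untreated replicate 1, untreated replicate 2 or treated replicate 1 (highest adjusted p of 0.256). It was not called under any other scaling and stood at 0.31 after protein-coding scaling (adjusted p = 0.382) and 0.33 after quantile normalization (adjusted p = 0.328). Its ratio to GAL3 was 0.367 to 0.460 in parental and 0.462 to 0.630 in tagged libraries. XUT1539, before GAL80, was higher in tagged cells by 0.74 (adjusted p = 0.00328) without and 1.06 (adjusted p = 6.1e-05) with rapamycin. CUT402, listed before GAL4, was higher by 0.68 (adjusted p = 0.00907) and 0.93 (adjusted p = 0.000402). For noncoding features, before means by row order, toward lower coordinates. For GAL4, on the - strand, that is not the side of its coding start. Neither XUT1539 nor CUT402 was called after snoRNA scaling or quantile normalization, nor XUT1539 without rapamycin after protein-coding scaling (0.53, adjusted p = 0.0512), and CUT402 was not called without rapamycin when parental or tagged replicate 1 was left out (highest adjusted p of 0.0687). Before GCY1, XUT0823 was higher in untreated tagged cells by 1.46 ± 0.24 (adjusted p = 6.9e-05), from 10 and 3 to 17 and 19 reads, a call lost under quantile normalization (0.87, adjusted p = 0.06). In the same place NUT0717 carried 359 reads in parental replicate 1 where GCY1 and NUT0716 together carried 360, and it tracked that sum in the other libraries, so the values of GCY1 and NUT0717 are not separate measurements; the labels do not say which strand was counted.

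Other genes bound by Gal4 were taken as a list of 3, MTH1, PCL10 and FUR4. In their promoter windows MTH1 and PCL10 had 1 match to the Gal4 motif each and FUR4 had 0. All 3 were called higher in tagged cells with and without rapamycin on the spike-in scale. After protein-coding scaling 2 of 3 were, and after snoRNA scaling 1 of 3. Spike-in scale calls in either direction covered 46.2% of all features without rapamycin, 72.5% with it and 13.4% with rapamycin in tagged cells. The spike-in scale counts of each list are read against these shares. MTH1, a corepressor of glucose transporter genes, had 0.0781 and 0.0686 reads per nucleotide in untreated parental cells, 0.0718 and 0.0645 in parental cells with rapamycin, 0.213 and 0.199 in untreated tagged cells and 0.284 and 0.204 in tagged cells with rapamycin. It rose by 1.41 ± 0.17 (adjusted p = 2.2e-06) without and 1.72 ± 0.17 (adjusted p = 7.91e-08) with rapamycin, under all 3 other scalings and without each library in turn, which no GAL member did. PCL10, a cyclin of the Pho85 kinase, rose by 0.49 (adjusted p = 0.0129) and 0.95 (adjusted p = 2.43e-05); after snoRNA scaling its difference without rapamycin was -0.13, and that call was lost under quantile normalization (0.13, adjusted p = 0.23) and without parental or tagged replicate 1 (highest adjusted p of 0.148). It was also called higher with rapamycin in tagged cells (0.61, adjusted p = 0.0276), a call that failed without untreated replicate 1, untreated replicate 2 or treated replicate 1 (highest adjusted p of 0.243) and under each other scaling, with 0.26 after protein-coding scaling (adjusted p = 0.236).

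FUR4, the uracil permease next to GAL1, rose by 0.41 (adjusted p = 0.0264) and 0.42 (adjusted p = 0.0159), turning to -0.24 and -0.25 after snoRNA scaling and, with rapamycin, to -0.09 and -0.08 after protein-coding scaling and quantile normalization. It lost the first call without parental replicate 1 or either tagged library (highest adjusted p of 0.145) and the second without either parental library or tagged replicate 1 (0.196). KAP104, a nuclear import receptor on the other side of GAL7, had a log2 difference of 0.25 (adjusted p = 0.177) without and 0.48 (adjusted p = 0.00795) with rapamycin, the latter -0.03 after protein-coding scaling, -0.19 after snoRNA scaling and -0.03 after quantile normalization and not called without parental or tagged replicate 1 (highest adjusted p of 0.0983). These differences lay within the range of those of the GAL genes. The paralogs PGM1 (-0.05 and 0.23) and YPR1 (-0.18 and 0.07) were not called in either strain comparison by limma or voom, with none at an unadjusted p under 0.05; after protein-coding scaling both were called lower, PGM1 at -0.31 and -0.27 and YPR1 at -0.44 in both.

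Of 10 glucose repressors and corepressors, 3 were called higher in tagged cells without rapamycin (46.2% of all features were called) and 6 with it (72.5%). For rapamycin in tagged cells 2 were called higher (13.4%), all on the spike-in scale. After protein-coding scaling 2 were higher and 1 lower without rapamycin, and 1 higher and 4 lower with it. At that scaling 20.8% of the 6100 protein-coding features tested were called higher and 21.5% lower without rapamycin, and 24.1% and 26.6% with it, the shares against which the counts of each list after protein-coding scaling are read. Their spike-in scaled median log2 differences between the strains, 0.20 and 0.35, were below those of all features. NRG1, a zinc-finger repressor of glucose-repressed genes, had densities of 0.491 and 0.622 in untreated parental cells, 0.649 and 0.724 in parental cells with rapamycin, 0.953 and 0.919 in untreated tagged cells and 1.49 and 1.48 in tagged cells with rapamycin. It rose by 0.75 ± 0.15 (adjusted p = 0.00038) without and 1.11 ± 0.15 (adjusted p = 2.64e-06) with rapamycin, and stayed positive at 0.11 and 0.44, not called, after snoRNA scaling. With rapamycin in tagged cells it rose by 0.66 (adjusted p = 0.0151), a call lost without untreated replicate 1 or untreated replicate 2 (highest adjusted p of 0.13) and under each other scaling, with 0.31 after protein-coding scaling (adjusted p = 0.167) and 0.33 after quantile normalization (adjusted p = 0.186). MIG1, the main repressor of GAL genes, rose on the spike-in scale by 0.41 (limma, adjusted p = 0.0359) without and 0.35 (adjusted p = 0.0499) with rapamycin. Without rapamycin it was not called under another scaling, at 0.15 after protein-coding scaling and -0.23 after snoRNA scaling. That call was also lost without parental replicate 1 or either tagged library. MIG2, its relative, rose by 0.54 in both comparisons (adjusted p = 0.00807 and 0.00439), with -0.10 and -0.12 after snoRNA scaling and, with rapamycin, 0.04 after protein-coding scaling, not called. It lost the first call without parental replicate 1 or tagged replicate 2 (highest adjusted p of 0.0982) and the second without tagged replicate 1 (0.0655).

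The Snf1 kinase complex, which relieves glucose repression, had 0 of 8 members called without rapamycin (limma and voom, with 0 at an unadjusted p under 0.05). It had 5 higher between the strains with rapamycin (72.5% of all features were called) and 1 with rapamycin in tagged cells (13.4%). After protein-coding scaling 2 were lower without and 2 with rapamycin, and none higher. SNF1 itself rose by 0.39 (adjusted p = 0.0208) and SNF4 by 0.47 (adjusted p = 0.00626) between the strains with rapamycin, both below the median of all features and negative after protein-coding (-0.11 and -0.04) and snoRNA scaling (-0.28 and -0.21). SNF1 lost its call without either parental library or tagged replicate 1 (highest adjusted p of 0.181), and SNF4 without parental replicate 1 (0.0843). TOS3, a kinase that activates Snf1, rose with rapamycin in tagged cells by 0.80 ± 0.16 (adjusted p = 0.00962) and was called after snoRNA scaling too, but not after protein-coding scaling (0.46, adjusted p = 0.221) or quantile normalization (0.48, adjusted p = 0.206), nor without untreated tagged replicate 2 (0.0952).

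Of 14 coactivators and related proteins at GAL genes, 2 rose and 2 fell without rapamycin (46.2% of all features were called). Between the strains with rapamycin 5 rose and 1 fell (72.5%), and 2 rose with rapamycin in tagged cells (13.4%). After protein-coding scaling 2 were higher and 5 lower without rapamycin, and 1 higher and 8 lower with it. GAL11, a Mediator subunit that Gal4 contacts, rose by 0.55 (adjusted p = 0.00597) and 0.57 (adjusted p = 0.00233), with -0.09 after snoRNA scaling in both and, with rapamycin, 0.07 after protein-coding scaling, not called. It lost the first call without parental or tagged replicate 1 (highest adjusted p of 0.0709). SPT3, a SAGA subunit, rose by 0.54 (adjusted p = 0.00881) and 0.76 (adjusted p = 0.000292), with -0.10 and 0.10 after snoRNA scaling, not called, and the first not called without parental replicate 1 or tagged replicate 2 (highest adjusted p of 0.0918). The densities of HSP82, an Hsp90 chaperone, were 1.19 and 1.40 in untreated parental cells, 1.48 and 1.37 in parental cells with rapamycin, 0.763 and 0.676 in untreated tagged cells and 1.03 and 1.92 in tagged cells with rapamycin. It fell by 0.84 ± 0.20 (adjusted p = 0.00175) in untreated tagged cells and rose with rapamycin in them by 0.96 ± 0.20 (adjusted p = 0.0112). The rise ran from 0.52 to 1.41 with single libraries left out and was not called after protein-coding scaling (0.61, adjusted p = 0.418) or quantile normalization (0.63, adjusted p = 0.426). LAP3, a cysteine aminopeptidase also known as Gal6, fell by 0.62 ± 0.15 (adjusted p = 0.00217) without rapamycin and was called lower under each scaling and without each library in turn.

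Of the 3 genes that continue the Leloir pathway, 1 was called higher in each strain comparison (after protein-coding scaling 1 higher and 2 lower in both), and it was PRM15 (PGM3), a phosphoribomutase, which rose by 0.64 (adjusted p = 0.00195) without and 0.87 (adjusted p = 5.28e-05) with rapamycin, neither called after snoRNA scaling (0.21 with rapamycin). Of 6 genes for other sugars, 4 were called higher without and 6 with rapamycin between the strains, against 46.2% and 72.5% of all features called. After protein-coding scaling 4 were called higher in both. MAL11, a maltose permease, rose by 0.85 (adjusted p = 0.000155) and 1.15 (adjusted p = 2.55e-06), and MAL12, a maltase, by 0.79 (adjusted p = 0.00971) and 1.42 (adjusted p = 2.85e-05). MAL12 and MAL32 are near-identical copies, so how their reads were divided is uncertain. After snoRNA scaling MAL11 (0.23 and 0.50) was not called, nor MAL12 without rapamycin (0.31), which quantile normalization lost as well (0.23). MAL12 also missed the threshold without rapamycin when parental or tagged replicate 1 was left out (highest adjusted p of 0.195). The medians of this list, 0.65 and 0.86, were above those of all features and of the GAL members.

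Of 16 RNA factors reported at GAL genes, 5 were called higher without and 8 with rapamycin between the strains, and none lower. Of all features 46.2% and 72.5% were called in these comparisons. After protein-coding scaling 5 RNA factors were higher and 6 lower without, and 4 higher and 8 lower with rapamycin. With rapamycin in tagged cells limma called 0, with 5 at an unadjusted p under 0.05 and 4 called by voom. NRD1, the RNA-binding subunit of the termination complex that ends CUTs, rose by 1.06 ± 0.14 (adjusted p = 8.92e-06) and 1.13 ± 0.14 (adjusted p = 1.65e-06). DCP1, the decapping cofactor, rose by 0.82 (adjusted p = 0.000148) and 1.26 (adjusted p = 4.46e-07). YRA1, an export factor that binds Dbp2, rose by 0.67 (adjusted p = 0.000611) and 1.02 (adjusted p = 3.07e-06). All 3 kept their calls after protein-coding scaling and quantile normalization and without each library. After snoRNA scaling DCP1 with rapamycin alone was called (0.59, adjusted p = 0.038).

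Across the 8 libraries the members varied together to different degrees. On log2 values, Pearson's r between pairs of tested members ran from 0.593 for GAL1 with GAL4 to 0.985 for GAL10 with GAL80. PGM2 was closest to GCY1 (0.924). Among protein-coding genes outside the regulon, the most alike were LAM1 (0.991) and NPP2 (0.986) for GAL1, ARC18 (0.999) and GSR1 (0.999) for GAL7, RIC1 (0.997) and ERP3 (0.995) for GAL3, and AIM24 (0.997) and SPE2 (0.997) for GAL80. For GAL4 they were YKR035C (0.981) and YDR102C (0.980), for PGM2 VVS1 (0.987) and GLK1 (0.974), the glucokinase gene, and for GCY1 GSY2 (0.992), the glycogen synthase gene, and GOR1 (0.988). All these points share the 8 libraries and their spike-in factors, and they are descriptions with no test.

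No gene of any of these lists was called by limma for rapamycin in parental cells or for the interaction. In parental cells 1 glucose repressor and 1 gene of the Snf1 complex had an unadjusted p under 0.05, and voom called none. For the interaction such genes numbered 2 of the coactivators and 1 each of the Gal4-bound genes, the Snf1 complex and the RNA factors, and voom called 1 coactivator.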

How the data were processed

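The deposited file holds signal values: reads per nucleotide, by library and as group means, per the file headers. The submitters' processing notes name Trim Galore, HISAT2 2.2.0, featureCounts 2.0.0, DESeq2 and the R64 build. The deposited densities equal whole reads (within 0.01, for 100.0% of positive values, with lengths up to 40000 nt chosen for it) divided by a length and by a library factor equal to the median of ratios of the spike-ins.

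The main test was limma 3.58.1 under R 4.3.3. It took log2(density + 0.00735), where 0.00735 is the 5th percentile of positive densities, over 9719 features with a mean density of at least 0.0127 (the 10th percentile), with 1 spread for the 4 groups (residual degrees of freedom 4, prior 17.2), two-sided, with Benjamini-Hochberg adjustment at 0.05 over all features tested. Fold changes are on that scale, which shrinks those of genes with low density. The 5 comparisons were the strains without and with rapamycin, rapamycin in each strain, and the interaction. Replicate reads gave a chi-square of 5.01 to 20.1 per degree of freedom, so no library was taken as a repeat. The fit was also run on simulated reads, which had no overall shift between the strains, unlike these data. That run therefore does not show how reliable the calls here are. Promoters were read from the R64 genome; other steps used Python 3.11.15 (pandas 2.3.3, numpy 2.4.6, matplotlib 3.10.9, scipy 1.17.1).

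The members and gene lists were chosen with earlier results of these data known. All 9 members are described; of each other list the counts are given, with up to 4 called genes by lowest p, and the neighbours and paralogs of members. For each member with at least 50 mean reads, the 2 protein-coding genes of highest r are named. Alternatives were other pseudocounts, no filter, other scalings, no trend, only the groups compared, a replicate block, each library left out and voom on recovered reads.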

Additional observations from a re-analysis of the deposited data

How the results depend on the processing

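Between the strains the number of members called was 2 without and 7 with rapamycin, and it moved with the scaling to 0 and 1 (protein-coding features), 0 and 0 (snoRNAs) and 1 and 2 (quantile normalization). For rapamycin in tagged cells, with 2 called, it was 0 under each of these scalings, 0 without the filter and 0 without a trend, 1 with the 1st-percentile pseudocount and 5 with voom. With the replicate number as a block it was 1, and the block moved no other count by over 1.5 times. Deviations of same-numbered libraries had correlations of -0.134 to 0.146, so no pairing by number was seen in the values. Whether same-numbered samples were handled together is not shown by this. With each library left out, 1 member was called without rapamycin, 2 to 7 with it, and 0 to 3 for rapamycin in tagged cells; a lone library is then assumed to vary like the other groups. In the other 2 comparisons no setting called a member.

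Directions turned mostly with scaling. After protein-coding scaling the strain difference was -0.12 for GAL3, -0.091 for GAL80 and -0.11 for PGM2 without rapamycin, and -0.016 for GAL1, -0.022 for GAL3, -0.18 for GAL80 and -0.058 for PGM2 with it. After snoRNA scaling it was -0.27 for GAL1, -0.12 for GAL10, -0.47 for GAL3, -0.48 for GAL80, -0.49 for PGM2 and -0.19 for GCY1 without, and -0.17 for GAL1, -0.17 for GAL3, -0.35 for GAL80, -0.22 for PGM2 and -0.011 for GCY1 with rapamycin. After quantile normalization it was -0.28 for GAL1, -0.059 for GAL7, -0.23 for GAL10, -0.48 for GAL3, -0.040 for GAL80 and -0.13 for PGM2 without, and -0.34 for GAL1, -0.057 for GAL7, -0.23 for GAL10, -0.37 for GAL3, -0.22 for GAL4, -0.13 for GAL80 and -0.075 for PGM2 with rapamycin.

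Uncalled rapamycin differences turned too: in tagged cells GAL4 and GAL80 were -0.26 and -0.087 (protein-coding scaling) and -0.25 and -0.081 (quantiles), and in parental cells GAL3 and PGM2 were -0.066 and -0.032, and -0.064 and -0.030, with GAL4 at -0.000707 under quantiles. The interaction turned to -0.10 for GAL1, -0.0046 for GAL7, -0.091 for GAL80 and -0.040 for GCY1 (protein-coding scaling), and to -0.060 for GAL1, -0.088 for GAL80 and -0.022 for GCY1 (quantiles). Leaving out libraries gave ranges across 0 for PGM2 between untreated strains (-0.055 to 0.35), for GAL10 (-0.013 to 0.47), GAL3 (-0.037 to 0.10), GAL80 (-0.0073 to 0.23) and PGM2 (-0.11 to 0.26) with rapamycin in parental cells, for GAL4 in tagged cells (-0.14 to 0.23), and for the interaction of GAL1 (-0.025 to 0.29), GAL10 (-0.031 to 0.45) and GAL4 (-0.25 to 0.13). The cause was not tested. GAL2, GAL10 and GAL7 rest on 12 to 102 reads per library, which limits their precision.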
